A study of Homo sapiens with 4 samples.

Results

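Circular RNAs of the genes for the GARP and EARP tethering complexes were taken from a table of back-spliced transcripts of a human breast cancer cell line. A row of the table is 1 circle, given by its back-splice positions. A row was a member when its gene field held VPS50, VPS51, VPS52, VPS53 or VPS54 exactly and its type was not antisense. The rule found 163 of 211599 rows, namely 38 for VPS50, 12 for VPS53 and 113 for VPS54. No row used here named VPS51 or VPS52, so their circles are not analysed here. VPS50 was put at the head of these genes with earlier results of the same libraries known. Its difference between the groups is therefore given as a description, with no test.

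GARP is a tether on the trans-Golgi network that captures vesicles arriving from endosomes, and it is built of VPS51, VPS52, VPS53 and VPS54. EARP shares VPS51, VPS52 and VPS53, carries VPS50 in place of VPS54, and acts at recycling endosomes. VPS50 and VPS54 are thus the subunits that tell the complexes apart, while VPS53 is common to both. Mutation of Vps54 gives the wobbler mouse its motor neuron disease, and mutations of VPS53 cause a form of pontocerebellar hypoplasia. A circular RNA arises by back-splicing, in which the 5′ splice site (donor) at the end of one exon is joined to the 3′ splice site (acceptor) at the start of the same or an earlier exon. HNRNPL, the protein depleted in the study, is a splicing regulator that binds CA-rich RNA.

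The 4 libraries came from radioresistant MDA-MB-468, a basal-like breast cancer line, here a derivative that had been given 50 Gy in total. In 2 libraries the cells carried a stable control hairpin (shCtrl, genotype labelled WT) and in 2 a stable hairpin against HNRNPL (shHNRNPL), 1 hairpin for each group. The design text calls the libraries of a group biological replicates, and p-values measure only the spread between these libraries. The question was which circular RNAs depend on HNRNPL. The knockdown itself was not checked here and rests on the labels.

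The libraries held 472428 and 556578 counts in shCtrl replicates 1 and 2, and 282737 and 390547 in shHNRNPL replicates 1 and 2. Levels below are counts per 100000 counts of the library, so they are relative to all circles of a library, and a higher level does not tell more circles per cell from more cells that hold them. A count of 0 allows up to 3 counts, or between 0.539 and 1.06 per 100000 in a library. The cDNA was amplified without molecular identifiers, so intervals and floors cover counting error only. shCtrl replicate 1 stood apart, with 70.9% of its counts in exon circles against 84.9% to 85.7% in the others, and with 6.79% in antisense circles against 2.38% to 2.69%. The main ratios are therefore given without it as well. Of 7 genes typical of the line or of epithelium, 5 had circles, with 811 counts in all, while the keratin genes KRT8 and KRT18 had 0. RB1 and SMAD4, which this line has lost, had 0 and 2 counts, and 7 genes of leukocytes, fibroblasts and endothelium had 0.

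VPS50 and VPS54 circles stood higher in the knockdown libraries, and VPS53 circles were few in all of them. VPS50 (ENSG00000004766.17), the subunit that defines EARP, had 16 and 41 counts in the shCtrl libraries and 177 and 244 in the shHNRNPL libraries. These are 3.39, 7.37, 62.6 and 62.5 per 100000 in that order. Both knockdown libraries lay far above both controls, and 15.9% of the host genes tested had all knockdown libraries above all controls. The knockdown mean of 62.5 ± 0.0890 (SD, n = 2) was 11.6 times the control mean of 5.38 ± 2.81 (SD, n = 2). The controls themselves differed 2.18 times, and the ratio was 8.49 without shCtrl replicate 1 and 18.5 without shCtrl replicate 2. On the log2 scale of the fit over all host genes, the difference was 3.79 ± 0.51 (SE).

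VPS54 (ENSG00000143952.20), the subunit that defines GARP, had 83 and 151 counts in shCtrl and 172 and 292 in shHNRNPL. The levels were 17.6, 27.1, 60.8 and 74.8 per 100000. Every knockdown library was above every control here too, by a smaller factor. The means were 22.3 ± 6.76 and 67.8 ± 9.85 (SD, n = 2 each), a ratio of 3.03, with 2.50 without shCtrl replicate 1 and 3.86 without shCtrl replicate 2. edgeR's quasi-likelihood test over 5911 host genes gave a log2 difference of 1.87 ± 0.44 (SE) with a Benjamini-Hochberg adjusted p of 0.0832, above the threshold of 0.05. VPS54 passed in 6 of 12 other ways of processing, with edgeR, DESeq2 or limma adjusted p-values from 0.000352 to 0.140, so its call rests on that choice. Of all host genes tested, 1.51% were called, 1.47% higher and 0.0338% lower.

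VPS53 (ENSG00000141252.21), common to both complexes, had 9, 12, 8 and 8 counts in shCtrl replicates 1 and 2 and shHNRNPL replicates 1 and 2. The levels of 1.91, 2.16, 2.83 and 2.05 per 100000 overlapped between the groups, and the means of 2.03 ± 0.177 and 2.44 ± 0.552 (SD, n = 2 each) had a ratio of 1.20. Of its 12 circles, 6 also name the pseudogene RPS4XP17, and these hold 17 of 37 counts. On the 20 counts of circles that name VPS53 alone, edgeR gave 0.07 ± 1.18 (SE) with an adjusted p of 0.985. The sign turned to -0.32 with library-size scaling in place of TMM. At this depth no difference was detectable, and the width of that error leaves large ones in either direction within reach.

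**Figure D1:**
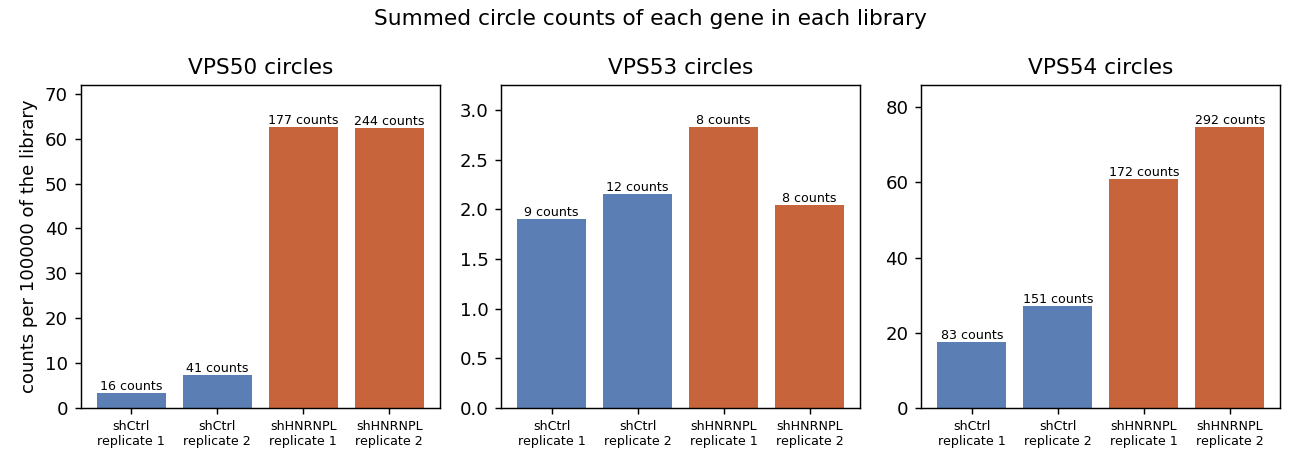
Summed circle counts of VPS50, VPS53 and VPS54, 1 bar per library, in counts per 100000 counts of that library (vertical axis from 0, with its own scale for each gene), with the raw count above each bar. VPS50 runs from 3.39 to 7.37 in the controls and 62.5 to 62.6 in the knockdown libraries, VPS54 from 17.6 to 27.1 and from 60.8 to 74.8, and VPS53 stays between 1.91 and 2.83.

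The scale of these differences can be read against the other genes. TMM scaling put the median host gene at a log2 difference of -0.27. Scaling by library size put it at -0.67, VPS50 at 3.45 and VPS54 at 1.52. By total count VPS50 ranked at 588, VPS54 at 379 and VPS53 at 4479 among 10214 host genes with circles. In 36.1% of the host genes tested, both shCtrl libraries exceeded both shHNRNPL libraries. The genes whose pattern over the 4 libraries was most like that of VPS50 were KIFAP3, GIN1 and ESCO1. Likeness was the root mean square difference of log2(counts per 100000 + 1), centred on each gene's mean, over 3365 host genes with at least 40 counts. It was 0.159 for KIFAP3 with 11, 25, 145 and 215 counts, and 0.199 both for GIN1 with 0, 6, 28 and 51 and for ESCO1 with 85, 183, 540 and 871. VPS54 came at rank 136 by this measure, at 0.920.

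**Figure D2:**
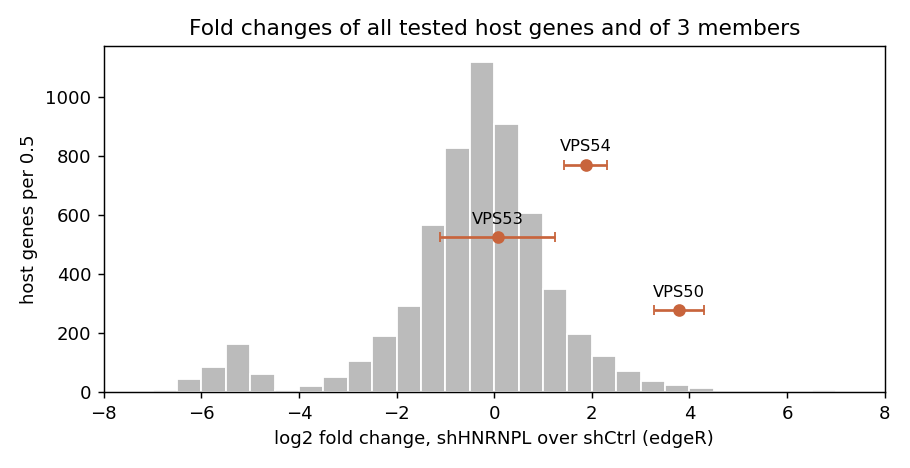
Histogram of the edgeR log2 difference between shHNRNPL and shCtrl (horizontal axis) over the 5911 host genes tested (vertical axis, genes per bin of 0.5), with VPS50, VPS53 and VPS54 as points with bars of 1 SE at arbitrary heights. VPS53 at 0.07 lies near the median of -0.27, VPS54 at 1.87 and VPS50 at 3.79 lie to the right of it, and 367 of the 375 genes below -4 had 0 counts in the knockdown libraries.

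VPS50 lies on the plus strand of chromosome 7, at chr7:93232366-93361123 of GRCh38.p14. Of its 38 circles, 34 had counts, 31 are of the exon type and 7 of the intron type, and each names VPS50 alone. Only 4 circles were seen in all 4 libraries and 13 in 1. Those with at least 10 counts numbered 11, and 10 of them were higher per 100000 in both knockdown libraries than in both controls, beside 23.2% of all 21576 circles with that many counts. None was lower. The values of these circles are the same counts that chose the gene, so nothing is read from that number. The log2 differences of the 8 with control counts ran from 1.80 to 5.12. The other 3 had 0 counts in both controls, where a fitted difference depends on the prior count. The 23 circles with 1 to 9 counts held 63 counts in all, at 1.27 and 1.26 per 100000 in shCtrl and 6.72 and 7.94 in shHNRNPL. Circles seen only in knockdown libraries numbered 18, those only in controls 5 and those in both 11. The like shares over all circles were not counted, so these numbers are a description only.

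To place the circles, the exons of VPS50 were numbered in the order of transcription from the circles' own deposited exon structures. These numbers are not those of the annotation, and counts per isoform are not given. The leading circle, chr7:93291703-93311272, spans 913 nt in 8 exons, blocks 11 to 18. It had 2 and 24 counts in shCtrl and 72 and 82 in shHNRNPL, or 0.423, 4.31, 25.5 and 21.0 per 100000. Both knockdown libraries were higher than both controls, and the controls lay far apart. The pooled ratio of knockdown to control was 9.05, with an exact 95% interval of 5.95 to 14.3. That interval, like those of the circles below, is taken on the summed counts of each group. It leaves out the spread between libraries and is not a test of the groups. Its log2 difference was 3.30 ± 0.74 (SE).

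That circle carries the disagreement between the controls. All other VPS50 circles together had 14, 17, 105 and 162 counts, or 2.96, 3.05, 37.1 and 41.5 per 100000. The controls nearly coincide there. Without the leading circle the means were 3.01 ± 0.0643 and 39.3 ± 3.07 (SD, n = 2 each), a ratio of 13.1 that became 12.9 or 13.3 when either control was left out. For the leading circle alone the ratio of means was 9.81, and leaving out shCtrl replicate 1 or 2 gave 5.39 or 54.9. Its share of the gene's counts was 12.5% and 58.5% in the controls and 40.7% and 33.6% in the knockdown libraries, so no difference in share between the groups exceeded the spread of the controls.

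The next circles are longer and reuse the same ends. The circle chr7:93252653-93323732 joins blocks 1 to 19, 1875 nt in 19 exons, and had 0 and 2 counts in shCtrl and 23 and 28 in shHNRNPL, a pooled ratio of 39.0 with an interval of 10.3 to 330. A further isoform listed for it has an additional exon of 1097 nt and is 2972 nt long. The circle chr7:93252653-93311272, of 1753 nt in 18 exons, starts at the same acceptor and ends at the donor of the leading circle. It had 2, 2, 13 and 20 counts, a pooled ratio of 12.6 with an interval of 4.48 to 49.0. Every one of these circles was low in both controls.

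The circle chr7:93276165-93323732, of 1176 nt in 10 exons, had 4, 0, 11 and 16 counts, a pooled ratio of 10.3 with an interval of 3.59 to 40.6. Its control counts came from 1 library, and its log2 difference of 3.13 became 1.94 without shCtrl replicate 2. Without shCtrl replicate 1 the fit gave 7.13, a value that depends on the prior count since the control left has 0. The circle chr7:93271220-93311272, of 1196 nt in 11 exons, had 0, 0, 12 and 14 counts. Against a floor of 3 counts in each control library this is at least 6.67-fold higher in the knockdown libraries. The circle chr7:93291703-93334197, of 1116 nt in 10 exons, opens at the acceptor of the leading circle and runs on to block 20. It had 1, 1, 9 and 15 counts, a pooled ratio of 18.3 with an interval of 4.55 to 160. Among the remaining circles with at least 10 counts, chr7:93271220-93334197 leaves out blocks 15 and 16, which hold 268 nt, and had 0, 0, 10 and 11 counts. The single one whose groups overlapped was chr7:93252653-93341575, of 2105 nt in 21 exons, with 0, 3, 1 and 6 counts. These last circles were picked after their values had been seen.

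**Figure D3:**
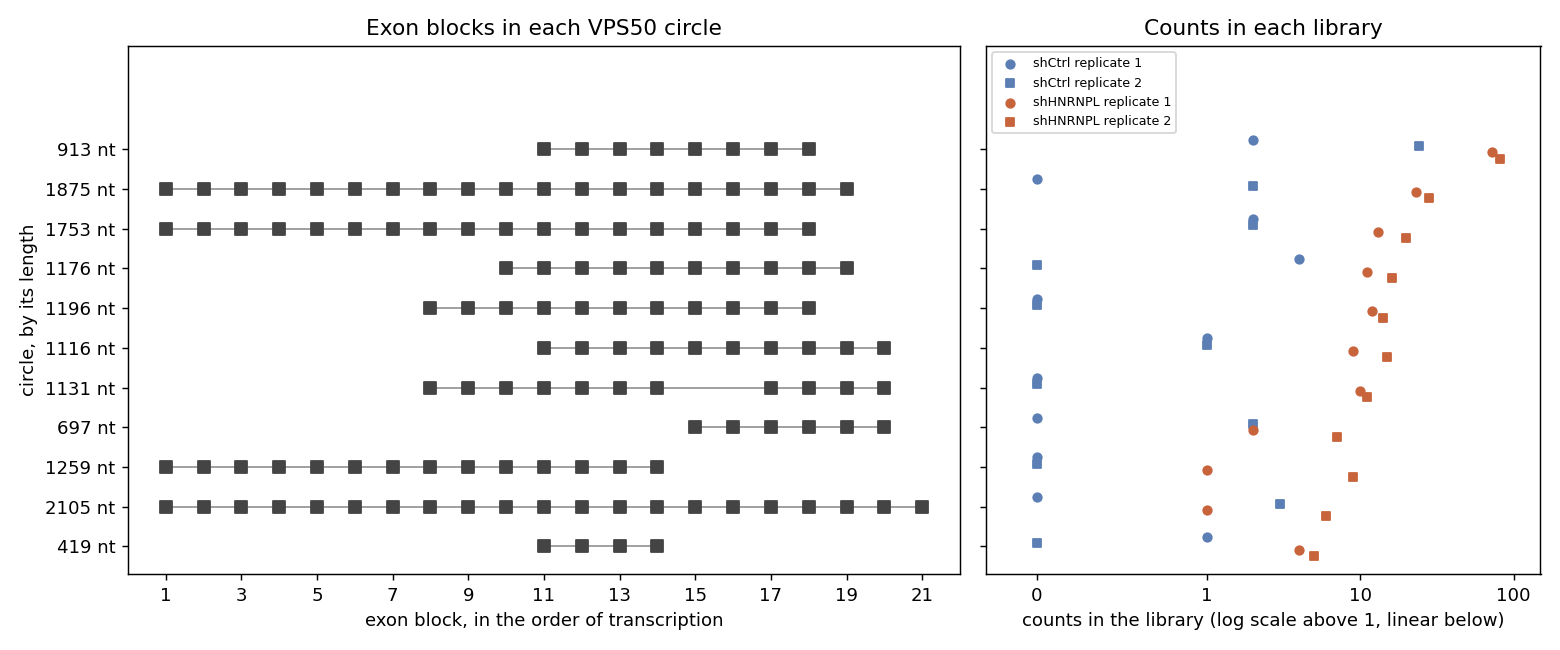
Left, the exon blocks (squares, numbered along the horizontal axis in the order of transcription) of each VPS50 circle with at least 10 counts, 1 line per circle, named by its length and ordered by total count. Right, raw counts of the same circles in each library (axis linear to 1 and logarithmic above, points shifted vertically to keep them apart): the leading circle, blocks 11 to 18, has 2 and 24 counts in the controls and 72 and 82 in the knockdown libraries, and the circle of 1131 nt leaves out blocks 15 and 16.

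A few splice sites served most VPS50 circles. The acceptor of block 11 opened 218 counts, 45.6% of the gene's total, with 6 and 25 in shCtrl and 85 and 102 in shHNRNPL. The acceptor of block 1 opened 121 counts, with 2, 8, 44 and 67. As shares of a library's VPS50 counts these were 37.5% and 61.0% against 48.0% and 41.8% for block 11, and 12.5% and 19.5% against 24.9% and 27.5% for block 1. The share of block 11 overlapped between the groups. That of block 1 did not, but its control shares rest on 2 of 16 and 8 of 41 counts. How often such shares fail to overlap over all genes was not counted, so nothing is read from it. The acceptor of block 10 opened 36 counts, with 4, 0, 13 and 19.

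Block 8 was used as an acceptor in the knockdown libraries, with 24 and 28 counts (13.6% and 11.5%), and had 0 in both controls. As a level it was at least 13.3-fold higher in the knockdown libraries, against a floor of 3 counts in each control library. As a share, the same floor allows up to 18.8% of the 16 counts of shCtrl replicate 1 and 7.32% of the 41 of shCtrl replicate 2, so a difference in the use of this site was not detectable against the former. With 2 libraries against 2, an exact two-sided permutation test of any such value cannot go below p = 0.333, so none is given.

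Among donors, that of block 18 closed 261 counts, 54.6% of the gene's total, with 7 and 27 in shCtrl and 101 and 126 in shHNRNPL. Its shares of 43.8% and 65.9% in the controls enclosed the 57.1% and 51.6% of the knockdown libraries. The donor of block 19 closed 84 counts, with 4, 2, 34 and 44, and that of block 20 closed 62, with 1, 3, 22 and 36. The donor of block 14 closed 29, with 1, 1, 9 and 18. Together the sites place most VPS50 circles over the middle of the gene. Blocks 11 to 14 were inside circles that hold 94.4% of the counts of exon circles without an asterisk in their splice motif, and blocks 15 and 16 inside 87.3%.

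**Figure D4:**
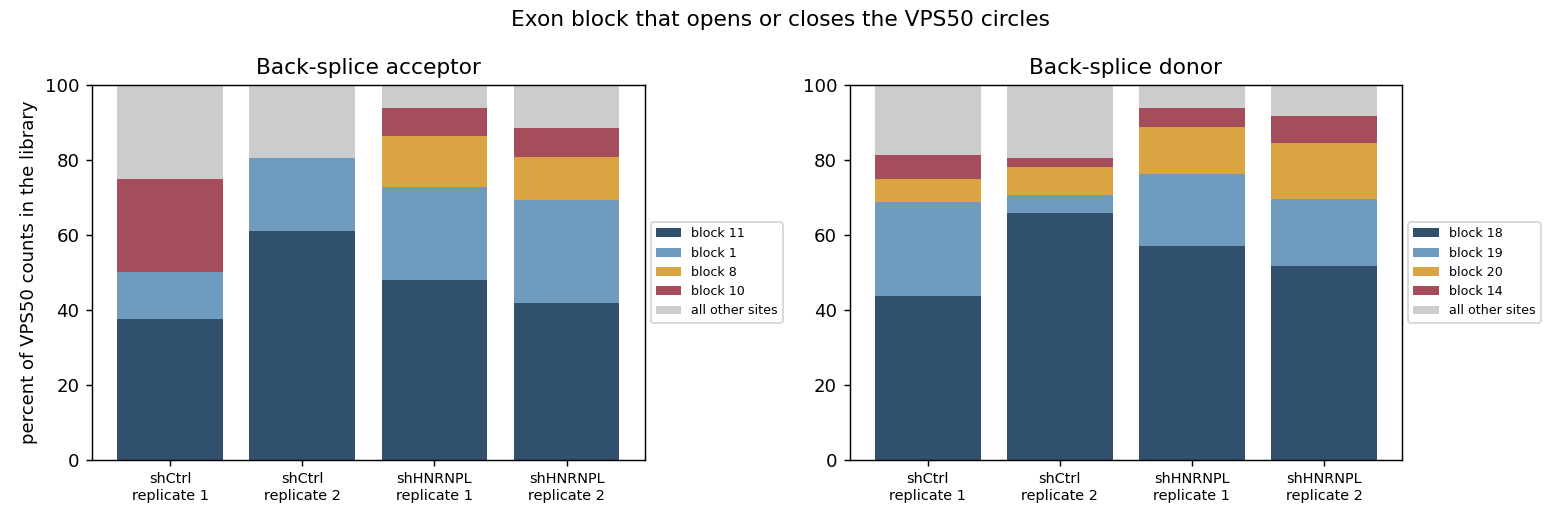
Share of each library's VPS50 counts (vertical axis, percent) by the exon block whose acceptor opens the circle (left) and whose donor closes it (right), for the 4 busiest of each and all other sites together. Block 11 opens 37.5% and 61.0% in the controls and 48.0% and 41.8% in the knockdown libraries, while block 8 is seen only in the latter, at 13.6% and 11.5%, from 16, 41, 177 and 244 counts in all.

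Several busy back-splice sites of VPS50 face long gaps between exon blocks. Blocks were taken from the first isoform listed for each exon circle without an asterisk in its splice motif. The site counts in this paragraph are those of the same circles. Only gaps between these blocks were measured, so block 1, with its 121 acceptor counts, has none before it and is left out. Block 11 is preceded by 15397 nt, the longest of these gaps, block 8 by 11587 nt, and block 18 is followed by 12338 nt and block 19 by 10384 nt, beside a median gap of 2427 nt. Further isoforms listed for some circles place exons inside the gaps after blocks 7, 10 and 18, which would shorten those gaps. The gaps, shares and correlations given here hold for the first-listed isoforms only. The 6 blocks followed by at least 6000 nt held 98.0% of 447 donor counts, and the 6 preceded by at least 6000 nt held 83.9% of the 342 acceptor counts outside block 1. Over 20 exons of this 1 gene, Spearman's rho of gap against counts was 0.82 for donors and 0.32 for acceptors, and Pearson's r was 0.54 and 0.63. Exons of 1 gene share their libraries and their circles, so these are descriptions. The acceptor of block 10, after a gap of 3431 nt, shows that a site with a shorter gap was used as well. Long gaps also lay beside sites with little or no use. The donors of blocks 7 and 10, before gaps of 11587 and 15397 nt, closed 1 count each. The acceptors of blocks 19, 20 and 21, after gaps of 12338, 10384 and 7229 nt, opened 0 counts of these circles. An intron circle with the asterisk, outside this count, opened at block 20 with 2 counts in shCtrl replicate 2.

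In length and exon number, the VPS50 circles of the groups overlapped. The median length per count was 1220.5 nt and 913 nt in the controls and 1116 nt in each knockdown library, and the median exon number was 10 and 8 against 9 and 10. Different circles numbered 9 and 11 in the controls and 23 and 26 in the knockdown libraries, which moves with the number of counts. Intron circles held 1, 4, 1 and 5 counts, so the higher level of VPS50 lay in exon circles. Some circles have an asterisk in the deposited splice motif, a mark whose meaning is not given in the sources used here. In VPS50 they held 1 and 4 counts in the controls and 2 in each knockdown library. As shares of VPS50 counts these were 6.25% and 9.76% in the controls and 1.13% and 0.820% in the knockdown libraries. So few counts do not bear a comparison of the shares.

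VPS54 lies on the minus strand of chromosome 2, at chr2:63892150-64019428 of GRCh38.p14, and its counts were spread over many more circles. Of 113 circles, 105 had counts, 81 of the 113 are of the exon type and 32 of the intron type, and 52 were seen in 1 library only and 10 in all 4. Of the 11 with at least 10 counts, 8 were higher in both knockdown libraries than in both controls, 3 overlapped and 0 were lower, beside 23.2% higher and 22.9% lower of all 21576 circles with that many counts. Circles seen only in knockdown libraries numbered 50, those only in controls 24 and those in both 31. Such shares over all circles of the table were not counted, so nothing is read from these numbers. The log2 differences of the 11 ran from 0.46 to 3.99 with a median of 1.24, and edgeR's adjusted p-values over 21576 circles from 0.104 to 0.859, so none passed. edgeR called 0 circles (0.0%) in the whole table, where the smallest adjusted p was 0.0761 and 2895 circles had an unadjusted p under 0.05, 2032 of them higher and 863 lower.

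The leading VPS54 circle differs from the next in its ends, not only in its level. The circle chr2:63893434-63981690, of 2597 nt in 21 exons in its first-listed isoform, has its donor 1284 nt from the end of the annotated span. Further isoforms listed for it have 957 nt in 9 exons and 5516 nt in 20 exons. This leading circle had 4 and 15 counts in shCtrl and 25 and 63 in shHNRNPL, a log2 difference of 2.82 ± 0.60 (SE) with an edgeR adjusted p of 0.130. The circle chr2:63893297-63981685, of 2729 nt in 21 exons, has its donor 137 nt and its acceptor 5 nt away, and had 2, 5, 16 and 23 counts, 3.05 ± 0.57 (SE) with an edgeR adjusted p of 0.104. Neither passed the threshold in edgeR, and each passed in 4 of 6 other ways of processing, with edgeR or DESeq2 adjusted p-values from 0.000328 to 0.175 and from 0.00422 to 0.152. Both carry the asterisk. The deposited splice entry of chr2:63893297-63981685 also gives an offset at each edge, which that of the leading circle does not. Whether the 2 acceptors are separate sites was not tested. The circle chr2:63962058-63984019, of 1030 nt in 6 exons and without the asterisk, had 14, 31, 23 and 37 counts. Its levels of 2.96, 5.57, 8.13 and 9.47 per 100000 did not overlap between the groups, while its raw counts did. edgeR gave 1.04 ± 0.42 (SE) with an adjusted p of 0.370.

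Grouped by acceptor after the values had been seen, and so with no test, VPS54 circles differed in how far apart their groups lay. Exon blocks are numbered as for VPS50. Circles that open at block 1, at position 63984019, were 12 with 251 counts and levels of 8.04, 13.5, 18.0 and 22.3 per 100000. Circles that open at the outer position of block 2, at 63981851, were 11 with 66 counts and levels of 1.91, 0.898, 7.78 and 7.68. Circles that open 161 nt further in, at the close pair 63981690 and 63981685, were 11 with 182 counts and levels of 2.33, 3.95, 17.0 and 25.9. Block 2 spans positions 63981646 to 63981887, so these acceptors lie inside it and not at its edge. The ratio of knockdown to control means was 1.87 for block 1, 5.52 for the outer position and 6.82 for the inner pair. Without shCtrl replicate 1 these were 1.50, 8.61 and 5.42, and without shCtrl replicate 2 they were 2.51, 4.06 and 9.20, so the order of the last 2 turned with the control used while block 1 stayed lowest. The inner pair made up 13.3% and 14.6% of VPS54 counts in the controls and 27.9% and 34.6% in the knockdown libraries. Of its 182 counts, 107 and 46 are those of the 2 leading circles with these acceptors, described above. The rate at which such shares fail to overlap over all genes was not counted, so nothing is read from them. The 71 VPS54 circles at all other acceptor positions had a ratio of 2.62.

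**Figure D5:**
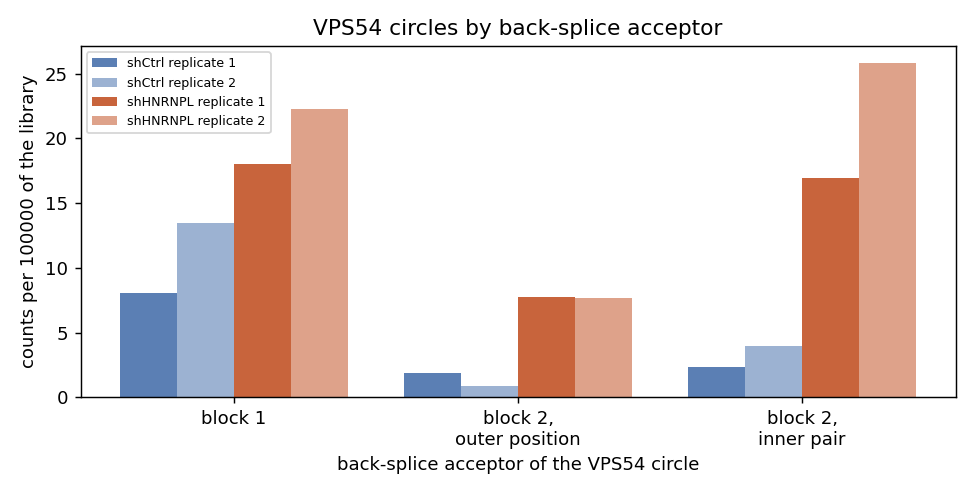
Levels of VPS54 circles in counts per 100000 of each library (vertical axis, from 0), grouped by back-splice acceptor, with 1 bar per library. The bars of block 1 rise from 8.04 and 13.5 in the controls to 18.0 and 22.3, and those of the inner pair of block 2 from 2.33 and 3.95 to 17.0 and 25.9.

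By type, VPS54 exon circles without the asterisk stood at 11.0, 16.3, 33.2 and 38.9 per 100000, a ratio of 2.64, and those with it at 2.75, 6.83, 21.9 and 31.2, a ratio of 5.55. The latter ratio was 3.89 without shCtrl replicate 1 and 9.66 without shCtrl replicate 2. VPS54 intron circles stood at 3.81, 3.95, 5.66 and 4.61, a ratio of 1.32, from 18, 22, 16 and 18 counts. Over all exon circles of the table the ratio was 1.19 without the asterisk and 0.719 with it, and the asterisk's share of exon counts was 26.5% in shCtrl replicate 1 and 12.7% to 13.7% in the other libraries. The asterisk's share of all VPS54 counts, intron circles included, was 37.3% and 39.7% in the controls and 44.2% and 47.6% in the knockdown libraries. These shares have another base than the exon shares of the table and are not to be set against them. Among VPS54 exon circles, those with the asterisk had 13, 38, 62 and 122 counts, and those without it 52, 91, 94 and 152. The part of that mark in the VPS54 values was not tested. The median VPS54 circle held 6 and 10 exons in the controls and 11 in each knockdown library, and the lengths were 1382 nt and 1540 nt against 1852 nt and 1759 nt. Exon numbers in these medians, as in those of VPS50, are those of the first-listed isoform.

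VPS53 lies on the minus strand at chr17:508668-714839 of GRCh38.p14, the longest of the 3 genes, and none of its 12 circles reached 10 counts. The circle chr17:623533-632841, of 606 nt in 5 exons, had 0, 3, 2 and 0 counts. The circle chr17:623533-661895, of 831 nt in 7 exons, closes at the same donor and had 0, 2, 1 and 2. An intron circle, chr17:643658-647127, had 4 counts in shCtrl replicate 1 and 0 elsewhere. Tied with it at 4 counts was the exon circle chr17:673725-674232, with 0 and 0 in shCtrl and 1 and 3 in shHNRNPL. All 6 VPS53 intron counts came from shCtrl replicate 1, which also held the largest intron share of all counts, 19.7% against 9.93% to 10.6%. The part of that library's makeup in the VPS53 values was not tested.

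The list of other genes of the GARP and EARP route held no called gene. Of 34 SNAREs, GTPases, golgins, retromer subunits, sorting nexins and cargo receptors chosen for that route, 31 had circles and 26 were tested. edgeR called 0 in either direction, with 11 above 0 and 15 below, a smallest adjusted p of 0.151, and 2 higher and 1 lower at an unadjusted p under 0.05. Of all 5911 host genes, 480 were higher and 407 lower at that level. The median log2 difference of the 26 was -0.16, beside -0.27 over all host genes. The 2 with the smallest p in each direction were VPS29, a retromer subunit, at 1.87 ± 0.55 (SE, edgeR adjusted p 0.151), and GCC2, a golgin, at 1.00 ± 0.42 (adjusted p 0.302), then SORT1, the sorting receptor sortilin, at -1.39 ± 0.49 (adjusted p 0.229), and STX6, a SNARE that binds GARP, at -0.95 ± 0.44 (adjusted p 0.350). VPS29 had 10 and 13 counts in shCtrl and 18 and 27 in shHNRNPL.

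The other tethers of the CATCHR family, to which GARP and EARP belong with COG, the exocyst and the Dsl1-type complex, gave 1 call. Of 20 genes 19 had circles and 16 were tested, with 8 above 0 and 8 below and a median of 0.18, beside -0.27 over all host genes. Of all host genes tested, 1.47% were called higher, and 15.9% had all knockdown libraries above all controls. EXOC6, an exocyst subunit, had 62 and 46 counts in shCtrl and 152 and 256 in shHNRNPL. The groups did not overlap, at 10.7 ± 3.44 and 59.7 ± 8.34 per 100000 (SD, n = 2 each), and edgeR gave 2.82 ± 0.40 (SE) with an adjusted p of 0.0154. That call was lost with the newer dispersion method of edgeR, under which 0 of the 16 were called. None was called lower, while 6 were higher and 1 lower at an unadjusted p under 0.05, beside 480 and 407 of all 5911 host genes. Calls in this list and in the route list moved when a shCtrl library was left out. Those fits rest on a lone control, and the share of all host genes called in them was not counted. Nothing is read from their calls.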

How the data were processed

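Back-spliced circles were measured by nanopore sequencing of Induro-copied, phi29-amplified cDNA, per the labels' protocols, in 4 libraries. The authors deposited raw counts per back-splice position, 1 row per circle, with circle length in nt and exon structure, and CIRI-long is named in the file's columns. The build GRCh38.p14 is named in the submitters' processing notes, as is DESeq2, with no role. Aligner, versions and filters are not given in the sources used here. Coordinates are those of the deposited table, and gene spans come from RefSeq for GRCh38.p14.

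Counts of circles that name 1 gene and are not antisense were summed per host gene. Features with at least 10 counts over the 4 libraries were tested with edgeR 4.0.16 (R 4.3.3; quasi-likelihood, TMM, default dispersion, Benjamini-Hochberg over all features, threshold 0.05), with standard errors taken from the F statistic. The default dispersion was kept with its outcome and that of the newer method both known. Alternatives used DESeq2 1.42.0, limma 3.58.1, other scalings, filters and gene assignments, a replicate block, and each library left out.

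Members and lists were chosen with earlier results of these data known. Text names all 5 genes; the 6 VPS50 circles and the 3 of each other gene with the most counts; from each list the genes past the threshold, or else the 2 with the smallest p in each direction; and the 3 genes most like VPS50. The count of 1 marker gene is not reported here.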

Additional observations from a re-analysis of the deposited data

How the results depend on the processing

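The VPS50 log2 difference of 3.79 lay between 3.45 and 3.95 in 12 other ways of processing and between 3.29 and 4.79 when each library was left out, 4.79 being without shCtrl replicate 2. For VPS54, 1.87 with an edgeR adjusted p of 0.0832 became past the threshold at 1.89 with DESeq2 (0.00661), 1.94 with limma voom (0.000352), 1.83 with no count filter (0.00328), 1.85 with at least 40 counts (0.0387), 1.95 on exon circles only (0.0356) and 1.93 with the replicate block (0.00380). Leaving out libraries gave VPS54 1.53 to 2.55, with adjusted p-values of 3.18e-09 and 3.20e-29 without shCtrl replicate 1 or 2, from fits in which the lone control is assumed to vary like the knockdown libraries, and of 0.305 and 0.602 without shHNRNPL replicate 1 or 2. VPS53 turned from 0.07 to -0.32 with library-size scaling, and ran from -0.36 to 0.46 with libraries left out. It could not be tested at 40 counts, and DESeq2 gave it no adjusted p. Route genes called lower went from 0 to 1 with no filter, and with libraries left out 0 to 6 were higher and 0 to 3 lower. Other tethers called higher went from 1 to 0 with the newer dispersion, 2 with no filter and 3 with the replicate block, and with libraries left out 1 to 7 were higher and 0 to 1 lower. The cause was not tested. Same-numbered libraries deviated together with r = 0.0706 over 4944 circles and no label pairs them, so replicate numbers served as names only. VPS51 and VPS52 gave no value. Depth limits VPS53 and every circle under 10 counts.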

Other observations

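Antisense circles that name a member were left out by the rule. They were 7, with 10 and 0 counts in shCtrl replicates 1 and 2 and 0 and 3 in shHNRNPL replicates 1 and 2.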
